A study of Mus musculus with 8 samples.

Results

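Transcript levels of 10 genes of the p53 pathway were examined liver by liver: the cyclin-dependent kinase inhibitor and senescence marker *Cdkn1a* (p21), *Mdm2*, *Ccng1*, *Trp53*, *Trp53inp1*, *Gadd45a*, *Gadd45b*, *Bax*, *Btg2* and *Phlda3*. They were taken by gene symbol from the 14506 genes listed for the series, and all 10 were found. Of these, 8 reached a mean of at least 10 normalized reads over all livers and were tested for a genotype difference together with the other genes at that level, 11174 in all. *Gadd45b* and *Phlda3* were below that mean, and for them only the values and an exact permutation test are given.

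The series compared whole livers of young mice that carry an activating change in the nutrient-sensing GTPase RagC with livers of their wild-type counterparts. The 4 Rragc+/+ mice were 3 months old (replicates 1 to 3) or 2.5 months old (replicate 4). The 4 RragcS74N/+ mice, heterozygous in every cell for a knock-in that replaces serine by asparagine in RagC (S74N), were 3 months old (replicates 1 and 2), 2.5 months old (replicate 3) and 2 months old (replicate 4). RagC S74N resembles the GDP-bound form that signals nutrient sufficiency to the kinase complex mTORC1, and since homozygous mice are not viable, each RragcS74N/+ liver also has a wild-type allele. The 2-month age occurs in RragcS74N/+ mice alone, so that age and genotype cannot be told apart there. Sex, feeding state and time of day at collection are not given for these mice in the sources used here. Each library is labelled as a separate mouse, and replicate numbers only name the mice.

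p53, the product of *Trp53*, is a transcription factor that is kept scarce by the ubiquitin ligase Mdm2 and accumulates when cells meet DNA damage, nucleolar stress or oncogenic signals. It then binds paired half-sites near its targets, which include genes that halt the cell cycle, genes that promote apoptosis and genes, such as *Mdm2* itself, that switch p53 off again. Because p53 is controlled mainly through protein stability, the *Trp53* transcript says little about p53 activity, and target transcripts are the usual readout in RNA data. Several targets have other inputs too. In liver, *Cdkn1a* also responds to the circadian clock, glucocorticoids and FoxO factors, and *Btg2* and *Gadd45b* behave as immediate early or stress genes.

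The libraries were made by 3' end sequencing, in which each transcript gives about 1 read position near its poly(A) tail. Normalized read counts were therefore compared between genes without a length correction. They are only an approximate guide to relative transcript copies, since reads shared with overlapping genes, for example, may be missing. Reads in listed genes ranged from 4313076 to 6632108 per liver. The 6 hepatocyte markers, including albumin and transthyretin, summed to 265212 to 384595 normalized reads in Rragc+/+ livers and 287457 to 497417 in RragcS74N/+ livers. Summed markers of other cells were far lower and overlapped between genotypes: the 6 Kupffer cell markers summed to 2174 to 3150 and 1903 to 3351, the 5 endothelial markers to 904 to 1247 and 908 to 1210, the 5 stellate cell markers to 1840 to 2167 and 1647 to 2234, the 5 cholangiocyte markers to 153 to 394 and 117 to 380, and the 5 lymphocyte markers to 20.6 to 44.8 and 18.9 to 49.8. Within these lists *Adgre1*, *Lyve1*, *Pecam1* and *Col1a1* were higher in RragcS74N/+ livers at an unadjusted p under 0.05, as were 2.37% of all genes tested. Their log2 differences were 0.80, 1.03, 0.88 and 0.96 (limma, adjusted p = 0.846 each). In the same lists *Clec4f* (-0.37), *Csf1r* (-0.38), *Stab2* (-0.24), *Clec4g* (-0.12), *Lrat* (-0.02) and *Dcn* (-0.14) were lower. The median was 0.16 for Kupffer, 0.15 for endothelial and 0.02 for stellate cell markers. The part of these markers in the results was not tested. Of 5 neutrophil markers, *Mpo* and *Ly6g* were not listed and the other 3 summed to 36.8 to 136 and 34.5 to 93.8. In whole tissue, fewer cells of a type and less RNA per cell cannot be told apart.

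The promoter sequences show matches to a single p53 half-site near the start of these genes. They are given for *Cdkn1a*, the member with the largest residual standard deviation, *Mdm2*, the feedback inhibitor, and *Bax*, the member with the smallest p for genotype. Each window holds 250 bases before and 50 after the start, 5' to 3' on the gene's own strand, from RefSeq on GRCm38.p6, with matches to the 10-base p53 half-site consensus in capitals. The *Cdkn1a* window is chr17:29090729-29091028 (plus strand), the *Mdm2* window chr10:117710709-117711008 (minus strand) and the *Bax* window chr7:45466849-45467148 (minus strand).
Cdkn1a: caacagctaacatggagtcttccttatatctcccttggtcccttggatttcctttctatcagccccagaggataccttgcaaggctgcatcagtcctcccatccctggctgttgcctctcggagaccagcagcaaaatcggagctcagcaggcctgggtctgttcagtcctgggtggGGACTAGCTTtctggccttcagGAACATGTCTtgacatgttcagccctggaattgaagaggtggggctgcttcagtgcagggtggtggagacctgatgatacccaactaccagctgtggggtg
Mdm2: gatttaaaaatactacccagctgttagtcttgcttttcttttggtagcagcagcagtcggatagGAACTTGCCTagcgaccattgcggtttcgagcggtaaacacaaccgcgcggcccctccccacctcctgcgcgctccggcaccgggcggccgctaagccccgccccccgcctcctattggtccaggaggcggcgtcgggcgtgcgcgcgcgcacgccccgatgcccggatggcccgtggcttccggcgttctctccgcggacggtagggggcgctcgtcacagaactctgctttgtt
Bax: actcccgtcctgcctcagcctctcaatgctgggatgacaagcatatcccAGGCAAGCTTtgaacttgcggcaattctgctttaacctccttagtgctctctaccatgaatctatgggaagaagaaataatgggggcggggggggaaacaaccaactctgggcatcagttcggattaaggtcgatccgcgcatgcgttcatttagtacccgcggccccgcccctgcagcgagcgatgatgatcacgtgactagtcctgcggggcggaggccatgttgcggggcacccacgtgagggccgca

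The *Cdkn1a* window held 2 half-sites, GGACTAGCTT beginning 73 bases and GAACATGTCT beginning 51 bases before the start. A further *Cdkn1a* start, 2790 bases downstream, had none in its own window. *Mdm2* had GAACTTGCCT 186 bases before its start and *Bax* had AGGCAAGCTT 201 bases before its start. Among the members not printed in full, *Ccng1* had GGGCAAGCCT at 185 bases, *Trp53* GGACTTGCCC at 75 bases and *Gadd45a* GGGCTAGCCC at 40 bases before the start. In all, 6 of the 9 members with a window held a match, and *Btg2*, *Gadd45b* and *Phlda3* did not. For *Trp53inp1* no window was given. The same consensus, searched on both strands, was present in 8.36% of all 32851 promoter windows of this length. The E-box CACGTG, which clock factors can bind, was in 3 of the 10 member windows (*Bax*, *Gadd45b* and *Trp53*) and in 7.15% of all windows, and it was not in either *Cdkn1a* window. The GC box GGGCGG was in 7 of the 10 and in 35.7% of all, and TATAAA in 2 of the 10 and in 13.6% of all. No match overlapped one of another motif. A match describes letters in the window and not binding in these livers. The search was for single half-sites without a mismatch. Paired sites, and sites outside these windows, were not sought.

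*Cdkn1a* did not separate the genotypes, but it varied 11-fold among the 8 livers. This inhibitor of cyclin-dependent kinases (ENSMUSG00000023067.14, chr17:29090976-29100727, GRCm38) had normalized read counts of 77.4, 220.7, 86.3 and 24.3 in Rragc+/+ replicates 1 to 4. In RragcS74N/+ replicates 1 to 4 it had 212.1, 90.7, 20.1 and 174.6. High livers were found in both genotypes, and in each genotype the 2.5-month-old mouse was the lowest. The means were 102 ± 83.6 in Rragc+/+ and 124 ± 86.1 in RragcS74N/+ livers (SD, n = 4 each). The log2 difference, RragcS74N/+ minus Rragc+/+, was 0.23 with a standard error of 0.71 and a 95% interval of -1.30 to 1.76 (limma, adjusted p = 0.950). This interval reaches beyond a 2-fold change in either direction, so the genotype difference of *Cdkn1a* was not closely bounded. Among the 3-month-old mice alone the mean counts were 128 and 151, and the log2 difference was 0.28 (limma, adjusted p = 0.930). Leaving out Rragc+/+ replicate 4, RragcS74N/+ replicate 1 or RragcS74N/+ replicate 4 turned the sign, to -0.32, -0.17 and -0.082.

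The spread of *Cdkn1a* was not one of read sampling. Between 18 and 236 reads stood behind each value, and the variance within genotypes was 64.6 times that expected from counting alone. Its residual standard deviation, 1.40 on the log2 scale, lay at the 97.6th percentile of all genes tested. Of the other members, *Btg2* (95.3) and *Gadd45a* (95) were also among the most variable genes, *Trp53* was at the 80.1st percentile, and *Mdm2* (22.8) and *Ccng1* (25.5) were lower in that order. That percentile rises where reads are few. Against counting alone, the variance was 40.6 times for *Btg2* and 20.4 times for *Trp53inp1*, but 4.33 times for *Gadd45a*, 4.24 times for *Trp53*, 5.50 times for *Mdm2* and 3.58 times for *Ccng1*. By that ratio *Cdkn1a* and *Btg2* stood highest. At equal relative spread the ratio rises with the number of reads, which was 85 in total for *Gadd45a* and 824 for *Mdm2*. Genes of such unlike depth cannot be ranked by it.

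**Figure D1:**
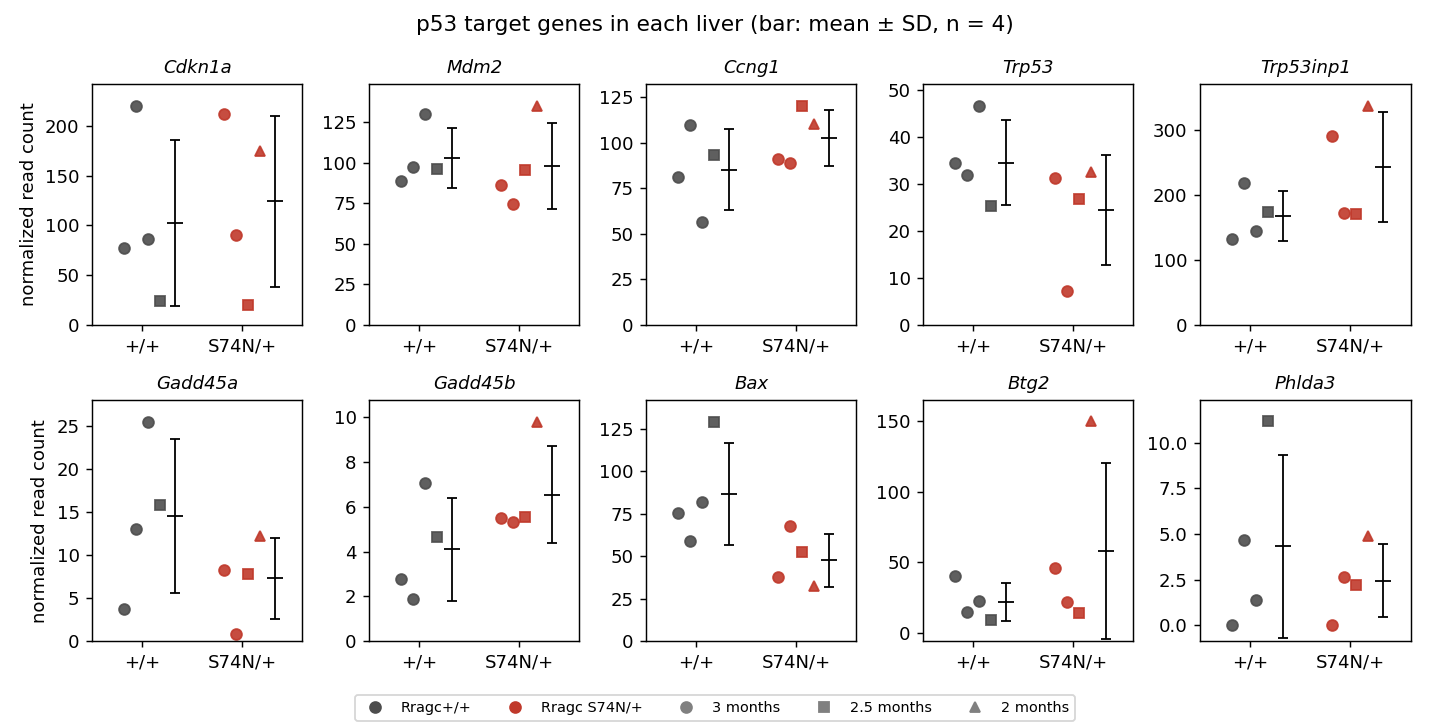
Normalized read counts of the 10 genes in each liver (y axes, each gene on its own scale) by genotype, with symbols for age and bars for mean ± SD of 4 livers. The genotypes overlap in all 10 panels, and the 2.5-month-old livers (squares) are the lowest for Cdkn1a in both genotypes.

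Over the members, none passed the test. At an adjusted p under 0.05 (limma, Benjamini-Hochberg), 0 of the 8 tested members were called, against 0.00895% of all genes tested, which was the single gene *Gpx3* (glutathione peroxidase 3, named here after its values were seen). At an unadjusted p under 0.05 it was 1 of 8, *Bax*, against 5.17% of all genes tested. That count rested on single livers: it was 0 without Rragc+/+ replicate 4, RragcS74N/+ replicate 1 or RragcS74N/+ replicate 4, and 3 (*Bax*, *Btg2* and *Trp53inp1*) without RragcS74N/+ replicate 3, where 1682 of 11182 genes tested had such a p. Higher means on the log2 scale in RragcS74N/+ livers were found for 4 of the 8, against 51.3% of all genes, and the median log2 difference was 0.07 against 0.01 for all genes. The genotypes overlapped in all 10 members, whereas they did not overlap in 2.94% of all genes tested (1.3% higher and 1.64% lower in RragcS74N/+ livers). On whole reads recovered from the normalized values, edgeR called 0 members, against 0.00895% of all genes, and had 1 at an unadjusted p under 0.05, with 5.53% of all genes. DESeq2 called 0 members, against 0.0895% of all genes, and had 2 at an unadjusted p under 0.05, *Bax* and *Btg2*, with 6.04% of all genes. With 4 livers per genotype the exact permutation test cannot go below p = 0.0286.

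The regulators of the pathway showed no difference that passed the test. *Trp53* (ENSMUSG00000059552.13, chr11:69580359-69591873) had normalized counts of 34.5, 31.8, 46.7 and 25.2 in Rragc+/+ livers and 31.2, 7.11, 26.7 and 32.6 in RragcS74N/+ livers. RragcS74N/+ replicate 2 stood apart with 8 reads, and the other 7 livers lay between 25.2 and 46.7. The means were 34.5 ± 8.98 and 24.4 ± 11.8 (SD, n = 4), and the log2 difference was -0.64 (SE 0.47, limma adjusted p = 0.846). Without RragcS74N/+ replicate 2 it was -0.16, and in 3-month-old mice alone, which include that liver, it was -1.24 (limma, unadjusted p = 0.0472).

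*Mdm2*, the ligase that marks p53 for degradation and is itself a p53 target, varied little between livers (ENSMUSG00000020184.15, chr10:117688875-117710758). Its normalized counts were 88.6, 97.3, 130.1 and 96.2 in Rragc+/+ livers and 86.3, 74.7, 95.8 and 135.4 in RragcS74N/+ livers. Both genotypes covered nearly the same range. The log2 difference was -0.09 (SE 0.25, 95% interval -0.64 to 0.46, limma adjusted p = 0.944), and it turned to 0.026 without Rragc+/+ replicate 3 and to 0.027 without RragcS74N/+ replicate 2. *Ccng1*, which encodes cyclin G1, a target that acts back on Mdm2, had 81.1, 109.4, 56.6 and 93.4 in Rragc+/+ livers and 90.9, 88.9, 120.4 and 110.1 in RragcS74N/+ livers (ENSMUSG00000020326.7, chr11:40748552-40755311). Only Rragc+/+ replicate 3, with 40 reads, was clearly below the rest. The log2 difference was 0.29 (SE 0.26, 95% interval -0.27 to 0.86, limma adjusted p = 0.851), and 0.11 without that liver. For these targets a 2-fold change in either direction lay outside the 95% interval, unlike for *Cdkn1a*.

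Among the other genes of growth arrest and stress, *Btg2* had the widest range of all members above the mean minimum except *Gadd45a*. *Btg2*, an antiproliferative protein that recruits mRNA deadenylases (ENSMUSG00000020423.6, chr1:134075170-134079120), had normalized counts of 40.1, 15.0, 22.6 and 9.34 in Rragc+/+ livers and 45.9, 22.2, 14.5 and 150.1 in RragcS74N/+ livers. RragcS74N/+ replicate 4, the 2-month-old mouse, had more than 3 times the count of any other liver, and the remaining livers of both genotypes overlapped. The log2 difference was 1.0 (SE 0.64, limma adjusted p = 0.846), and it fell to 0.36 without that liver and to 0.40 in 3-month-old mice alone. With DESeq2 it was 1.43 (unadjusted p = 0.0283).

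*Gadd45a*, a stress sensor that binds PCNA and activates stress kinases, was scarce (ENSMUSG00000036390.8, chr6:67035096-67037457). It had 3.73, 13.1, 25.5 and 15.9 normalized reads in Rragc+/+ livers and 8.26, 0.889, 7.80 and 12.2 in RragcS74N/+ livers. Between 1 and 18 reads stood behind each value, and Rragc+/+ replicate 1 was lower than all but 1 RragcS74N/+ liver. The log2 difference was -0.97 (SE 0.77, 95% interval -2.63 to 0.70, limma adjusted p = 0.846), and -1.53 in 3-month-old mice alone. Without RragcS74N/+ replicate 2, the liver with 1 read, it was -0.36. *Gadd45b*, its paralogue, which is induced in growing and inflamed liver, had 2.80, 1.87, 7.07 and 4.67 normalized reads in Rragc+/+ livers and 5.51, 5.33, 5.57 and 9.79 in RragcS74N/+ livers (ENSMUSG00000015312.9, chr10:80930073-80932204). With 2 to 12 reads per liver its variance was 0.997 times that of counting alone, and the genotypes overlapped (exact permutation test, two-sided p = 0.20). A difference in *Gadd45b* was not detectable at this depth.

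Of the apoptosis genes, *Bax* was lower in RragcS74N/+ livers at an unadjusted p under 0.05 but did not pass the test over all genes. *Bax*, the effector that permeabilizes the outer mitochondrial membrane (ENSMUSG00000003873.11, chr7:45461697-45466898), had normalized counts of 75.5, 58.9, 82.0 and 128.9 in Rragc+/+ livers and 37.6, 67.5, 52.4 and 32.6 in RragcS74N/+ livers. In 3 of the 4 RragcS74N/+ livers it was below every Rragc+/+ liver, and replicate 2 lay within their range. The 2 lowest were replicates 1 and 4, which also had the highest sums of stress and fasting genes described with *Trp53inp1* and *Btg2*. The means were 86.4 ± 30.0 and 47.5 ± 15.7 (SD, n = 4). The log2 difference was -0.84 (SE 0.32, 95% interval -1.54 to -0.15, limma unadjusted p = 0.0206, adjusted p = 0.846), and the exact permutation test gave a two-sided p = 0.0571. In 3-month-old mice alone it was -0.49 (limma, unadjusted p = 0.205). The annotated gene Gm45808 overlaps *Bax* on the same strand, so reads in the shared part may have been left uncounted or split.

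*Trp53inp1*, a stress protein of the p53 response that also takes part in autophagy, was the most abundant member by mean count in both genotypes (ENSMUSG00000028211.11, chr4:11156431-11174379). It had 132.4, 218.8, 144.3 and 173.8 normalized reads in Rragc+/+ livers and 290.1, 171.5, 170.5 and 337.7 in RragcS74N/+ livers. RragcS74N/+ replicates 1 and 4 were above all Rragc+/+ livers, and the other two lay within their range. The log2 difference was 0.49 (SE 0.28, 95% interval -0.10 to 1.09, limma adjusted p = 0.846). *Phlda3*, a p53 target that restrains Akt signaling, was listed with 0, 4.68, 1.41 and 11.2 in Rragc+/+ livers and 0, 2.67, 2.23 and 4.89 in RragcS74N/+ livers (ENSMUSG00000041801.5, chr1:135766119-135769136). At 0 to 12 reads per liver no difference was detectable (exact permutation test, two-sided p = 0.80).

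**Figure D2:**
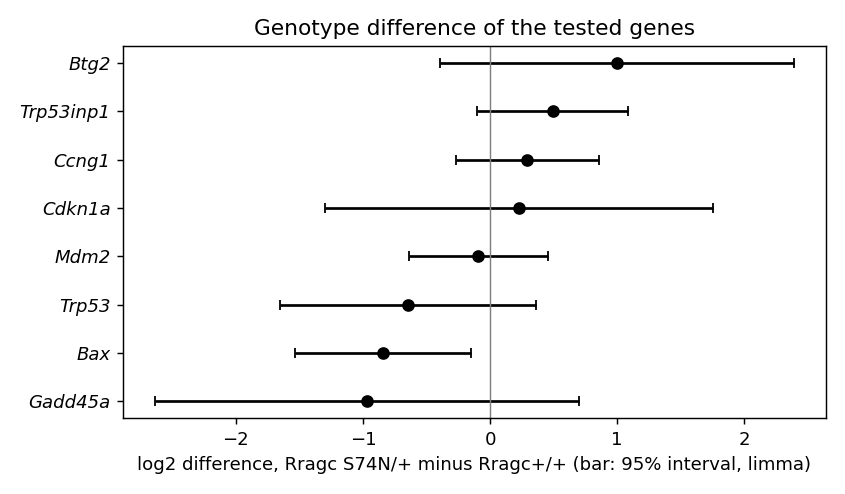
Log2 difference in normalized count, RragcS74N/+ minus Rragc+/+ (x axis), of the 8 tested members (y axis), with 95% intervals from limma. The interval of Bax, -1.54 to -0.15, lies below 0 and those of the other 7 members include 0.

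In order of mean count in Rragc+/+ livers, *Trp53inp1* (167 ± 38.5) came before *Mdm2*, *Cdkn1a*, *Bax*, *Ccng1*, *Trp53*, *Btg2*, *Gadd45a*, *Phlda3* and *Gadd45b*. The ranges of neighbours in that order did not overlap between *Trp53inp1* and *Mdm2* and between *Ccng1* and *Trp53*, and overlapped elsewhere. In RragcS74N/+ livers the order was *Trp53inp1* (242 ± 84.8), *Cdkn1a*, *Ccng1*, *Mdm2*, *Btg2*, *Bax*, *Trp53*, *Gadd45a*, *Gadd45b* and *Phlda3*, and only the ranges of the last pair did not overlap. *Bax* thus stood above *Btg2* in Rragc+/+ and below it in RragcS74N/+ livers, where *Btg2* owed its place to a single liver.

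The members did not move together as a set from liver to liver. Over the 28 pairs of the 8 tested members (log2 scale, 8 livers), 16 correlations were positive and the median Pearson r was 0.08. An unadjusted exact permutation p under 0.05 was found for 4 pairs, and 0 remained after adjustment over the 28 pairs (smallest adjusted p = 0.247, exact permutation test). *Mdm2* and *Gadd45a* had r = 0.77 (exact permutation p = 0.0253) and Spearman's rho = 0.76 (exact permutation p = 0.0368), and r was 0.91 without the 2 livers farthest from the *Mdm2* median. It was 0.65 without RragcS74N/+ replicate 2, where *Gadd45a* had 1 read (exact permutation p = 0.129). Without Rragc+/+ replicate 3 it was 0.68 (exact permutation p = 0.119). The other 3 pairs rested on the livers farthest from the median. *Trp53* and *Gadd45a* had r = 0.81 (exact permutation p = 0.0299) and rho = 0.38 (exact permutation p = 0.360), and r was -0.51 without RragcS74N/+ replicate 2 and Rragc+/+ replicate 3. *Trp53inp1* and *Bax* had r = -0.78 (exact permutation p = 0.0228) and rho = -0.64 (exact permutation p = 0.0962), and r was -0.25 without RragcS74N/+ replicates 1 and 4. *Bax* and *Btg2* had r = -0.74 (exact permutation p = 0.0352) and rho = -0.55 (exact permutation p = 0.171), and r was -0.20 without the 2 extreme livers. Over all 8 livers *Cdkn1a* had r = 0.12 with *Mdm2*, -0.08 with *Ccng1* and 0.12 with *Trp53* (exact permutation p = 0.787, 0.858 and 0.784). Its r with *Trp53inp1* was 0.58 (rho = 0.64, exact permutation p = 0.124 and 0.0962). With *Bax* it was -0.59 and with *Btg2* 0.59 (exact permutation p = 0.130 and 0.124). With each genotype centred on its own mean, r with *Bax* was -0.75 (exact permutation p = 0.0321), and 0 of the 28 pairs passed adjustment. Without the 2 livers farthest from the *Cdkn1a* median, the 2.5-month-old mice, r was 0.11 for *Mdm2*, 0.70 for *Ccng1*, 0.21 for *Trp53* and 0.86 for *Trp53inp1*. It was -0.77 for *Bax* and 0.20 for *Btg2*, so the values for *Ccng1* and *Btg2* depended on those livers.

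**Figure D3:**
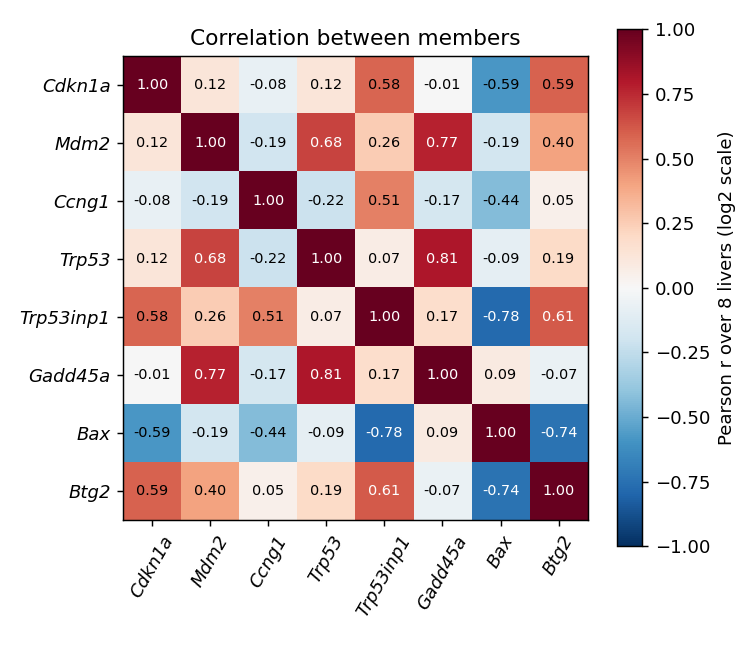
Pearson correlation over the 8 livers (color, from -1 to 1) between the log2 counts of the 8 tested members, by pair. Mdm2 and Gadd45a are at 0.77, Cdkn1a and Mdm2 at 0.12, and 16 of the 28 pairs are positive.

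Other genes followed *Cdkn1a* more closely than any member did. Among 6916 genes with a mean of at least 50 normalized reads, those most like it over the 8 livers were *Mgat1*, a glycosyltransferase of the Golgi (Pearson r = 0.99), *Dpf2*, a subunit of chromatin-remodeling complexes (r = 0.99), and *Tmem11*, a mitochondrial membrane protein (r = 0.98). The most opposed were *Lpin2*, a phosphatidate phosphatase (r = -0.99), *Dnttip2* (r = -0.98) and the ubiquitin ligase *Smurf1* (r = -0.98). The 8 points of each correlation share their library, and the genes were the extremes of many, so these values are a description. The fifth in that order, noted after the values were seen, was *Bbc3*, which encodes the proapoptotic p53 target Puma (r = 0.98). *Bbc3* had 49.4, 101, 46.7 and 21.5 normalized reads in Rragc+/+ livers and 145, 61.3, 13.4 and 116.7 in RragcS74N/+ livers, with the same 3 livers at the top and the same 2 at the bottom as *Cdkn1a*. Its genotype difference was 0.37 (limma, adjusted p = 0.905). Of 26 other p53 targets tested, 4 had r of at least 0.9 with *Cdkn1a* (*Bbc3*, *Fas*, *Ei24* and *Ddit4*), or 15.4%, against 2.50% of all genes tested, and 0 of the 7 other members did. This count was not planned, includes *Bbc3* and depends on the cut, since *Ei24* (0.904) and *Ddit4* (0.907) were only just past it. The median r of the 26 targets was 0.15, against -0.02 for all genes tested. The cell cycle inhibitor *Cdkn1b* (p27), a paralogue of *Cdkn1a* also picked out after its values were seen, had r = 0.94.

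Summed clock genes varied with *Cdkn1a* from liver to liver, but no such relation passed adjustment. Time of day at collection is not given, so the summed counts of 9 genes that peak near dusk in mouse liver (*Per1* to *Per3*, *Nr1d1*, *Nr1d2*, *Dbp*, *Tef*, *Hlf* and *Bhlhe41*) were set beside it. They were 1125, 1063, 921 and 1713 in Rragc+/+ livers and 734, 915, 2397 and 614 in RragcS74N/+ livers. The 2 livers with the highest sums, the 2.5-month-old mice, were the 2 with the lowest *Cdkn1a*. Over the 8 livers r was -0.88 (exact permutation p = 0.00543) and rho -0.74 (exact permutation p = 0.0458), and without these 2 livers r was -0.46, so the relation rested on them. The 5 dawn genes, summed, gave r = 0.81 (exact permutation p = 0.0160) and rho = 0.88 (exact permutation p = 0.00724). The genes of neither list moved as one. Taken singly, r with *Cdkn1a* ran from -0.94 (*Nr1d1*) to 0.11 (*Per2*) among the dusk genes. Among the dawn genes it was 0.92 for *Arntl*, 0.87 for *Nfil3*, 0.51 for *Npas2*, 0.12 for *Cry1* and -0.60 for *Clock*. Adjusted over the 40 relations of 5 such lists with the 8 members, 0 passed (smallest adjusted p = 0.0724, exact permutation test), and 12 had an unadjusted p under 0.05. No correlation was computed within the 5 livers of 3-month-old mice, since 6 was taken as the fewest. The part of collection time and age in the spread of *Cdkn1a* was not tested.

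**Figure D4:**
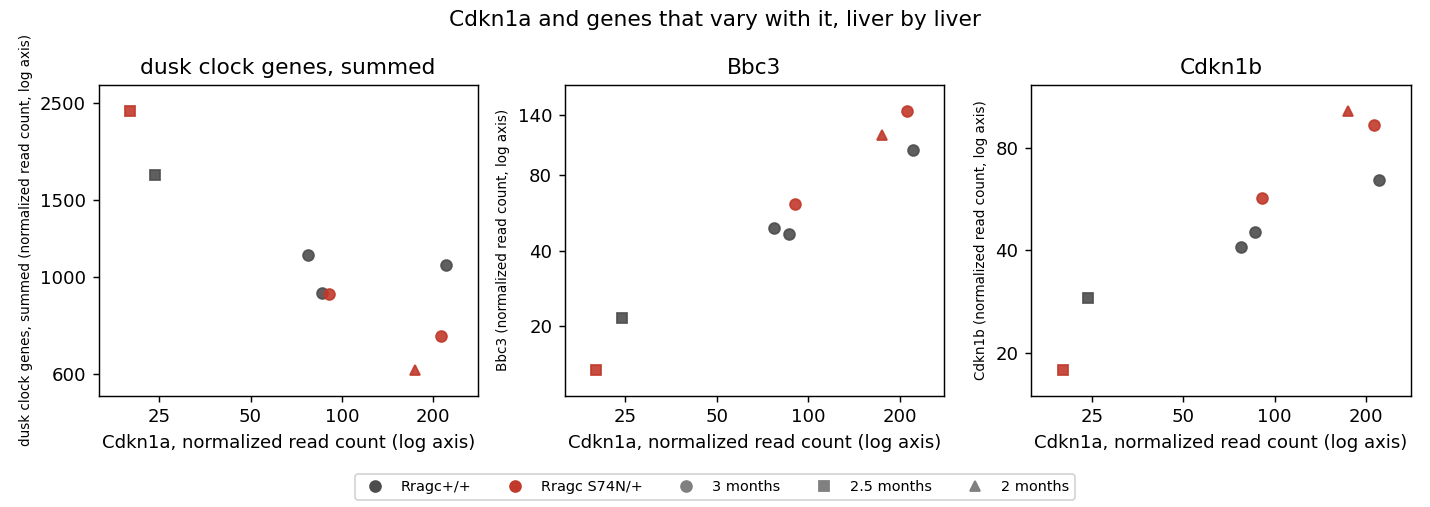
Summed dusk clock genes, Bbc3 and Cdkn1b against Cdkn1a (all in normalized read counts on log axes), with 1 point per liver, color for genotype and symbols for age. The 2.5-month-old livers, with Cdkn1a at 24.3 and 20.1, have the highest clock sums, 1713 and 2397, and the lowest Bbc3, 21.5 and 13.4.

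RragcS74N/+ replicates 1 and 4, which had the highest *Trp53inp1* and *Btg2*, also had the highest sums of stress and fasting genes. The immediate early genes (*Fos*, *Jun*, *Egr1* and others, 11 listed) summed to 422 to 507 in Rragc+/+ livers and to 824, 491, 381 and 1291 in RragcS74N/+ livers. *Jun* (253 and 168) and *Junb* (89.1 and 162) were above all Rragc+/+ livers in both replicates 1 and 4. *Egr1* was so in replicate 4 alone (498), with 61.5 in replicate 1. *Fos*, at most 7.07 in any liver, *Ier3* and *Klf6* stayed within their Rragc+/+ range in both. The 7 glucocorticoid-responsive genes summed to 390 to 733 in Rragc+/+ livers and to 1344, 532, 458 and 8237 in RragcS74N/+ livers. Different genes made up the 2 high sums. In replicate 1 the largest was *Tat* (886), and the metallothionein *Mt1* (41.3) was the lowest of all livers. In replicate 4 the metallothioneins *Mt1* (4381) and *Mt2* (1887) were the largest, with *Tat* at 1520. The 7 listed fasting genes, such as *Pck1* and *Igfbp1*, summed to 2679 to 3860 in Rragc+/+ livers and to 7413, 3842, 3199 and 9270 in RragcS74N/+ livers. Each sum was thus above the Rragc+/+ range in replicates 1 and 4. The fasting genes did not all rise there. *Pck1*, *G6pc*, *Igfbp1* and *Ppargc1a* were above all Rragc+/+ livers in both replicates 1 and 4. *Cpt1a* was the lowest of all livers in replicate 1, and *Angptl4* was the lowest of all livers in replicate 4 (18.8). Each was within its Rragc+/+ range in the other replicate, and *Pdk4* was within its range in both. With the immediate early sum, r was 0.89 for *Trp53inp1* (exact permutation p = 0.00489, rho = 0.74) and 0.87 for *Btg2* (exact permutation p = 0.00868, rho = 0.74). Without these 2 livers r was 0.31 and 0.22, so both relations rested on them. *Cdkn1a* had r = 0.67 (exact permutation p = 0.0496) and rho = 0.90 (exact permutation p = 0.00456, adjusted p = 0.145) with the immediate early sum, and r was 0.92 without these 2 livers. *Bax*, lowest in the same 2 livers, had r = -0.77 with the immediate early sum and -0.74 with the glucocorticoid-responsive sum (exact permutation p = 0.0248 and 0.0287). Without them r was -0.05 and -0.24. The part of these states in the levels of *Trp53inp1*, *Btg2*, *Bax* and *Cdkn1a* was not tested.

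The wider p53 pathway was described with lists of related genes, in which 0 genes were called at an adjusted p under 0.05 (limma). Of 37 other p53 targets, 26 were tested, of which 14 were higher and 12 lower in RragcS74N/+ livers, with a median log2 difference of 0.01 as over all genes. At an unadjusted p under 0.05, 0 were higher, against 2.37% of all genes, and 2 were lower, against 2.8% of all genes. These were *Dcxr*, a carbonyl reductase of sugar metabolism (log2 difference -0.63, limma adjusted p = 0.846), and the stress cytokine *Gdf15* (-1.04, limma adjusted p = 0.846). *Dcxr* was 1436 ± 181 in Rragc+/+ and 933 ± 186 in RragcS74N/+ livers without overlap (SD, n = 4), as were 1.64% of all genes tested in that direction. The genes with the smallest p in the other direction were the glutaminase *Gls2* (0.94) and the epoxide hydrolase *Ephx1* (0.28), both overlapping between genotypes. Of 15 tested regulators of p53, 4 were higher and 11 lower (median -0.11), and 0 had an unadjusted p under 0.05. The smallest p values belonged to *Trp53bp2* at -0.47 and *Crebbp* at -0.25, and in the other direction *Trim28* at 0.30 and the deacetylase *Sirt1* at 0.53.

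Senescence and proliferation genes gave no call either. Of 15 kinase inhibitors and senescence markers, 10 were tested, with 7 higher, 3 lower and a median of 0.19, and 0 had an unadjusted p under 0.05. *Cdkn2a* and *Cdkn2b*, markers commonly used for senescent cells, were not among the listed genes, of which the scarcest had 6 reads over all livers. *Cdkn1c* (0.77) and *Rbl2* (0.36) had the smallest p among the higher genes, and *Glb1*, the lysosomal galactosidase behind the senescence stain, was at -0.53 and the lamin *Lmnb1* at -0.10. Of 7 tested cyclins, kinases and PCNA, *Cdk2*, a kinase that p21 inhibits, was higher at an unadjusted p under 0.05, with 15.0 ± 9.56 and 37.4 ± 11.5 normalized reads and no overlap (log2 difference 1.6, limma unadjusted p = 0.0219, adjusted p = 0.846). Over all genes tested, 2.37% were higher at such a p and 1.3% were higher without overlap. The others named by p were *Cdk4* (0.40), *Ccnd2* (-0.37) and *Cdk6* (-0.09). Of 8 tested mitotic and replication genes 4 were higher and 4 lower, from *Mcm6* (1.17) and *Mcm3* (0.59) to *Top2a* (-0.67) and *Mcm5* (-0.38), and 0 had an unadjusted p under 0.05.

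Among 15 tested genes of the BCL2 family and caspases, 9 were higher and 6 lower (median 0.12), and 2 were lower at an unadjusted p under 0.05, against 2.8% of all genes tested. *Bok*, a relative of *Bax*, was 64.8 ± 6.38 in Rragc+/+ and 35.6 ± 6.35 in RragcS74N/+ livers (SD, n = 4) without overlap (log2 difference -0.86, SE 0.27, limma unadjusted p = 0.00677, adjusted p = 0.846). Over all genes tested, 1.64% were lower without overlap. *Bcl2l1*, whose product Bcl-xL opposes Bax, was 267 ± 31.2 and 162 ± 57.0 (-0.77, limma unadjusted p = 0.00897, adjusted p = 0.846). Neither passed adjustment. On the higher side were *Diablo*, which releases caspases from their inhibitors (0.44), and *Mcl1* (0.27). Of 12 tested paralogues of the members, 8 were higher and 4 lower (median 0.23), with *Tob1*, a relative of *Btg2*, higher at 0.56 (limma unadjusted p = 0.0475, adjusted p = 0.846) and *Bok* lower, while *Cdkn1c* and *Bak1* (-0.16) did not reach that p. At an unadjusted p under 0.05, 2.37% of all genes tested were higher and 2.8% lower.

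**Figure D5:**
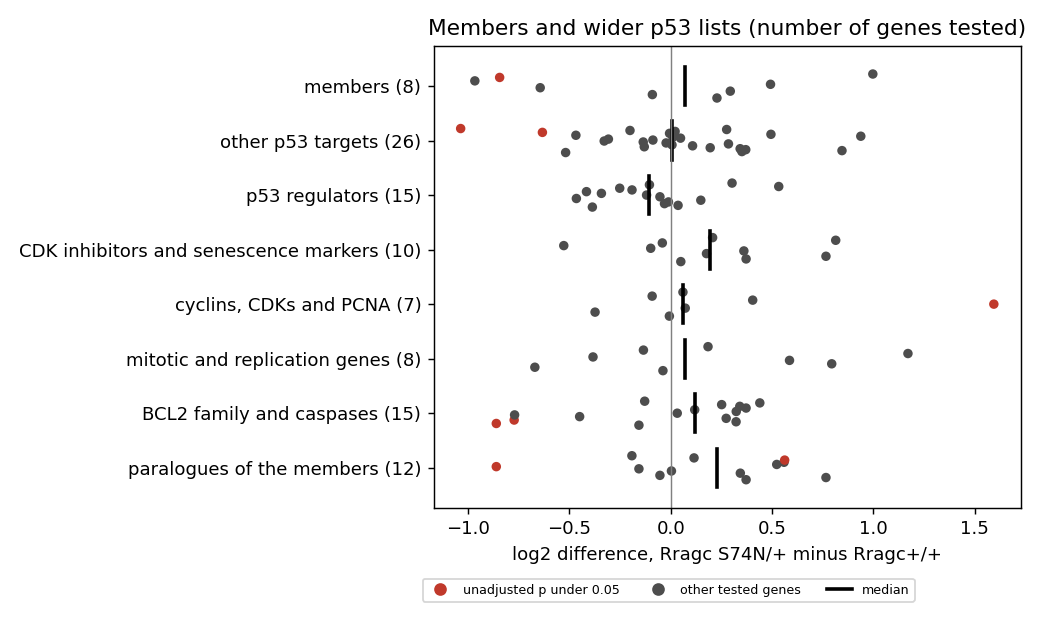
Log2 difference, RragcS74N/+ minus Rragc+/+ (x axis), of each tested gene in the members and 7 wider lists (y axis, with the number tested), with the median as a bar and red points for an unadjusted p under 0.05. The medians lie between -0.11 and 0.23, and the red points are Bax, Dcxr, Gdf15, Cdk2, Bok, Bcl2l1 and Tob1.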

How the data were processed

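Livers of 4 Rragc+/+ and 4 RragcS74N/+ mice were profiled by QuantSeq 3' mRNA sequencing, which primes at the poly(A) tail and keeps strand. Per the submitters' notes, the authors checked reads with FastQC 0.11.7, aligned them to GRCm38 with TopHat2 2.0.10, Bowtie 1.0.0 and SAMtools 0.1.19 and counted them per gene with HTSeq 0.6.1. The deposited values are a signal: gene counts divided by the size factors of the authors. In every library 100% of the values were whole multiples of 1 read (tolerance 1e-06), and recovered totals were 4313076 to 6632108 reads.

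Groups came from the genotype labels. All genes with a mean of at least 10 (11174 of 14506) were fitted on log2(value + 1) with limma 3.58.1 in R 4.3.3 (genotype alone, mean-variance trend, Benjamini-Hochberg adjustment, threshold 0.05), so log2 differences understate the change of low genes. Exact permutation tests (two-sided, scipy 1.17.1 in Python 3.11.15) used all 70 labellings for genotype and all pairings for correlations. Recovered reads were also tested with edgeR 4.0.16 and DESeq2 1.42.0. Other alternatives changed the pseudocount, low-value filter, scaling, trend, age term or livers used. No pair of libraries agreed within sampling noise (chi-square per degree of freedom at least 16.2 over 28 pairs).

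All 10 members are named. From each wider list the text names up to 2 tested genes per direction by smallest unadjusted p, and it names the 3 genes most like and the 3 most opposed to *Cdkn1a* by Pearson r. Members and lists were chosen with earlier results of these data known. Gene positions are from GENCODE M21 and promoters from RefSeq (both GRCm38). Of the 10 members, 9 had a promoter window. *Cdkn1a* and *Gadd45a* have antisense neighbours, and the counting used strand.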

Additional observations from a re-analysis of the deposited data

Results flagged for a closer look

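Over the 10 genes in each genotype (20 groups of 4 livers), a single liver stood far from the other 3 on the log2(value + 1) scale in 2 groups, where chance alone gives about 1. *Trp53* in RragcS74N/+ replicate 2 was at 3.02 (a normalized count of 7.11), and *Gadd45b* in RragcS74N/+ replicate 4 was at 3.43 (a normalized count of 9.79).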

How the results depend on the processing

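No tested member was called at an adjusted p under 0.05 under any alternative (limma, edgeR or DESeq2), and no pair of members passed adjustment under any alternative (1 to 6 of 28 pairs had an unadjusted exact permutation p under 0.05 without 1 liver each). Over all genes, 1 was called with limma. The count was 0 without the trend (603 at an unadjusted p under 0.05), 0 with age in months as a covariate (415), 0 in 3-month-old mice alone (640), 10 with DESeq2 (675), and 0 to 2 without 1 liver each (312 to 1682), and 3 with age as a factor (632), an alternative added after the data were seen. The cause was not tested, other than fewer livers in those fits that leave some out. Without 1 liver each, the log2 difference ranged from -0.32 to 0.94 for *Cdkn1a* (negative without Rragc+/+ replicate 4 at -0.32, RragcS74N/+ replicate 1 at -0.17 and RragcS74N/+ replicate 4 at -0.082), and from -0.26 to 0.027 for *Mdm2* (positive without Rragc+/+ replicate 3 at 0.026 and RragcS74N/+ replicate 2 at 0.027). The other 6 tested members kept their direction in the fits that held them. Without Rragc+/+ replicate 3, *Gadd45a* was below the mean minimum and was not fitted. For *Bax* it ranged from -1.03 to -0.63 without 1 liver each (limma, unadjusted p 0.0101 to 0.0747) and from -0.86 to -0.49 in the other settings. No paired analysis was possible because no label ties a mouse of one genotype to a mouse of the other. Depth limits *Gadd45a*, *Gadd45b* and *Phlda3*, with at most 18 reads in a liver, and p-values measure the spread among 4 mice per genotype that also differed in age.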

Other observations

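Some genes of the lists were too scarce to be tested. *Cdc20*, an activator of the anaphase-promoting complex, was picked out after its values were seen. It had normalized counts of 9.32, 7.48, 7.07 and 10.3 in Rragc+/+ livers and 4.59, 0, 1.11 and 4.89 in RragcS74N/+ livers, so the genotypes did not overlap, at a mean below the minimum of 10 used for the test. Among all genes tested, 1.64% were lower without overlap. The other mitotic and replication genes too scarce to be tested, *Cdk1*, *Plk1*, *Birc5*, *Mcm4* and *Rrm2*, had higher means in RragcS74N/+ livers, with overlap. *Top2a*, a topoisomerase of proliferating cells, was tested and had 45.7, 13.1, 56.6 and 114 in Rragc+/+ livers and 15.6, 68.4, 53.5 and 9.79 in RragcS74N/+ livers. Its r with *Cdkn1a* over the 8 livers, which share their libraries, was -0.81, and the cause of that relation was not tested.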
